A study of Drosophila melanogaster with 12 samples.

Results

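The Hox complexes of Drosophila melanogaster lie on chromosome arm 3R, and their nucleosomes were followed here from Gcm-expressed neural progenitors (GNP) to glia. Each complex was taken as a fixed interval of the dm3 build, without use of any measured value. The Antennapedia complex, lab to Antp, was 3R from 2480000 to 2830000 (350 kb), and the bithorax complex, Ubx to Abd-B, was 3R from 12480000 to 12810000 (330 kb). Nucleosomes whose listed start fell in an interval were its members. The Antennapedia complex held 1577 nucleosomes in GNP and 1537 in glia, and the bithorax complex held 1464 and 1460. Together these were 3041 of 522119 nucleosomes predicted in GNP (0.582%) and 2997 of 510664 in glia (0.587%).

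The study tagged nuclei with a fusion protein of the nuclear envelope and pulled them down from cross-linked embryos with an antibody to FLAG, a method named INTACT. GNP nuclei, which the labels call early glial cells, came from embryos of 5–7 h after egg laying that carried gcm-Gal4 and UAS-mCDGFP over the cyo balancer together with UAS-3xFLAG-blrp-mCherry-RanGap. Glia nuclei, which the labels call late glial cells, came from embryos of 12–14 h that carried repo-Gal4 with the same UAS-3xFLAG-blrp-mCherry-RanGap tag over Tm3B. These genotypes are those of the labels, whereas the study's methods give the GNP line without the cyo balancer and the glia line over Tm3, and state that the tag line also expresses BirA, a biotin ligase. Of 12 samples in the series, the 2 MNase-seq samples were used, and 10 ChIP-seq samples of 5 histone marks were not analysed here. Micrococcal nuclease (MNase) digests the linker DNA and spares the DNA wrapped around histones. Gcm is also expressed in precursors of hemocytes, the blood cells of the fly. The study reports higher expression and more active histone marks for neural progenitor genes than for hemocyte genes in GNP nuclei. It proposes that these nuclei are mainly of neural progenitors. How many GNP nuclei were of the hemocyte lineage was not tested here. Nuclei of all body segments were pooled in both samples.

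Hox genes encode homeodomain transcription factors that give each segment of the body its identity. Their order along the chromosome follows the order of the segments they specify, from head to tail. Each gene is active in some segments and silent in the others. Polycomb group proteins maintain the silent state by compacting chromatin and by methylating histone H3, and trithorax group proteins maintain the active state. In the embryonic nervous system, Hox proteins differ between the segments of the ventral nerve cord and shape the lineages that give rise to neurons and glia.

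The content of the intervals was read from the RefSeq annotation of a later assembly (Release 6), for names and order only. From lab to Antp this annotation lists 45 genes over 338 kb, of which 20 code for protein. The homeotic genes lab, pb and Dfd act in the head, Scr acts in the head and the anterior thorax, and Antp acts in the thorax. Among them lie bcd, the maternal determinant of the anterior body, zen and zen2, of which zen specifies dorsal extraembryonic tissue, and ftz, a pair-rule segmentation gene. Ama (a secreted immunoglobulin protein), Edg84A and the Ccp84A cuticle genes, mir-993, mir-10 and 17 long non-coding RNAs are listed in the same span. From Ubx to Abd-B the annotation lists 17 genes over 316 kb, of which 6 code for protein. Ubx specifies the posterior thorax and the anterior abdomen, abd-A specifies the middle abdomen, and Abd-B specifies the posterior abdomen and the genitalia. The others include Glut3, a sugar transporter gene, 8 long non-coding RNAs such as lncRNA:bxd and lncRNA:iab8, and mir-iab-4 and mir-iab-8, microRNAs of which each comes from 1 strand of the same locus and represses Hox genes. No gene of this annotation was placed on the maps, because its coordinates belong to another build.

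The lists used here hold only the predicted position of each nucleosome, with the same length for all. They give no occupancy or depth, so the depth behind each position is unknown here. With 1 library per cell type no test was possible. Each value is therefore set beside all other windows of the same length between 380001 and 27700000 of arm 3R, 74 windows for the Antennapedia complex and 78 for the bithorax complex. The rank among these windows is a description. For each complex 34 measures were ranked, and further ranks were made for parts of it, other definitions and other measures. With so many ranks, some were bound to lie near the ends. Intervals are at the 95% level and cover counting error only. Cell type, embryo age, genotype (driver line and balancer), depth and the calling of positions cannot be told apart as sources of a difference between the maps.

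The Antennapedia complex carried nucleosomes at the usual density of the arm in both cell types. It held 4.51 nucleosomes per kb in GNP (exact Poisson interval 4.29 to 4.73) beside a window median of 4.49, and 4.39 in glia (4.17 to 4.62) beside 4.37. The complex had 40 fewer nucleosomes in glia, a difference of -2.54% (interval from the log ratio, -9.15 to 4.56) where the windows had a median of -2.40%. In 10 kb bins the number ranged from 32 to 49 in GNP and from 35 to 47 in glia. No bin of 35 differed by 1.2-fold or more, beside 0.378% of background bins with that many fewer and 0.0378% with that many more in glia. Glia had the larger number in 6 bins (17.1%), GNP in 22 and neither in 7, whereas 26.1% of background bins had more in glia. Where GNP had more, the largest differences were 49 against 43 in glia in the bin from 2630000 and 49 against 44 in the bin from 2790000. Where glia had more, they were 37 in GNP against 40 in the bin from 2560000 and 32 against 35 in the bin from 2640000.

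The bithorax complex had nearly equal nucleosome numbers in both maps. Its density was 4.44 nucleosomes per kb in GNP (4.21 to 4.67) and 4.42 in glia (4.20 to 4.66), beside window medians of 4.48 and 4.36. The difference of -0.273% (-7.25 to 7.22) lay above that of 75 of 78 windows, whose median was -2.48% and whose range was -4.55 to 1.09. The counting interval treats nucleosomes as independent and is wider than that whole range. It therefore cannot decide how unusual the rank is. Glia had the larger number in 14 of 33 bins (42.4%), GNP in 15 and neither in 4. Here too no bin differed by 1.2-fold or more. The largest difference with more in GNP was 49 against 43 in the bin from 12500000, and the largest with more in glia was 41 against 46 in the bin from 12530000. The bin from 12580000 held 18 nucleosomes in each map, the lowest number of the complex, because a stretch of about 6 kb in it has no predicted nucleosome.

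**Figure D1:**
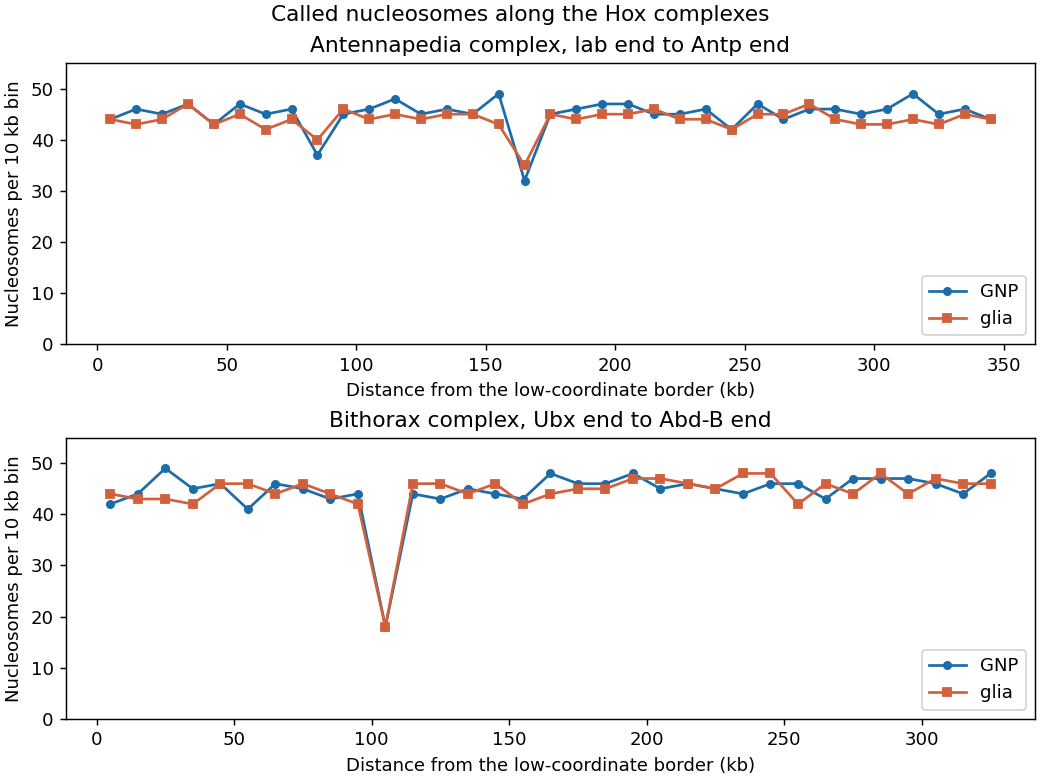
Number of predicted nucleosomes in each 10 kb bin (y axis) against distance from the low-coordinate border in kb (x axis), for the Antennapedia complex (top) and the bithorax complex (bottom), with GNP as blue circles and glia as orange squares. Both maps follow each other closely, with a dip to 32 and 35 nucleosomes in the Antennapedia complex and to 18 in both maps of the bithorax complex.

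The median spacing of nucleosomes in the Antennapedia complex was wider than in most windows, in GNP and in glia. The median distance between neighbouring dyads, the midpoints of nucleosomes, was 204 bp in GNP (order-statistic interval 200 to 207, quartiles 175 and 254). Of 74 windows, 72 had a shorter median and none a longer one, and the window median was 199 bp. In glia the complex had 213 bp (208 to 216) beside 209 bp, and 71 windows were shorter. The difference between the maps was 9 bp, equal to the window median. Distances of 160 to 200 bp, close to the repeat length, made up 38.6% of all distances in GNP (Wilson interval 36.2 to 41.0, 608 of 1576), where the background share was 41.8%. They made up 34.4% in glia (32.1 to 36.9, 529 of 1536), where the background share was 35.7%.

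The bithorax complex also had a wide median spacing in GNP, and its median differed less between the maps than that of most windows. Its median distance was 203 bp in GNP (198 to 206, quartiles 175 and 257), longer than in 74 of 78 windows. In glia it was 208 bp (204 to 212, quartiles 178 and 254), 1 bp under the window median of 209 bp. The difference of 5 bp was smaller than in 75 windows, which had a median of 9.75 bp and a range of 1 to 15 bp. Distances from 160 to 200 bp made up 39.8% in GNP (37.3 to 42.3, 582 of 1463) and 37.4% in glia (35.0 to 39.9, 546 of 1459). The GNP share was under that of 71 windows, while the glia share was over that of 71 windows. The difference of -2.36 points was smaller in size than in 76 of 78 windows, whose median was -5.96 points.

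In regular arrays, that is runs of at least 5 nucleosomes with every distance from 160 to 200 bp, the Antennapedia complex held a smaller share in GNP than any of the 74 windows. Here 104 of 1577 GNP nucleosomes lay in 19 arrays, or 6.59% (5.47 to 7.93), beside a background share of 11.7%. The windows ranged from 7.37 to 17.7% and had a median of 30.5 arrays. In glia, 85 of 1537 nucleosomes lay in 15 arrays, or 5.53% (4.49 to 6.79), beside a background share of 6.02%, and 31 windows were lower. Glia minus GNP was -1.06 points, where the window median was -5.54 points and 72 of 74 windows were lower. With runs of at least 4 nucleosomes the GNP share was 15.2%, again below all 74 windows. With distances from 150 to 220 bp it was 32.7%, below 71 windows.

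Under the same definition, the bithorax complex held an almost equal share in arrays in both cell types. In GNP, 112 of 1464 nucleosomes lay in 21 arrays, or 7.65% (6.40 to 9.13), and 76 of 78 windows were higher. In glia, 115 of 1460 lay in 20 arrays, or 7.88% (6.60 to 9.37), and 67 windows were lower. The difference of 0.226 points compared with a window median of -5.94 points and a range of -11.5 to 0.534, and only 2 windows had more in glia than in GNP. Both the near-equal shares and the low rank in GNP rested on the definition of an array. With runs of at least 4 nucleosomes the complex had 19.7% in GNP beside a window median of 21.5%, with 25 windows lower. With distances from 150 to 220 bp it had 33.5%, with 9 windows lower. In glia the complex had less than in GNP under both definitions but was above the window median, at 15.0% with 60 windows lower and at 29.9% with 58 windows lower.

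The windows of the arm with the lowest GNP shares were looked at beside the complexes. The 7 set against the Antennapedia complex, with 7.37 to 8.99% in GNP, had 3.82 to 6.62% in glia, a range that holds its 5.53%. The 8 set against the bithorax complex, with 6.90 to 8.84% in GNP, had 4.60 to 7.43% in glia, below the 7.88% of the complex in each case. Across windows the GNP and glia shares were almost unrelated (Pearson's r = 0.0841 over 74 windows and 0.121 over 78, as a description, since all windows of a map share 1 library).

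**Figure D2:**
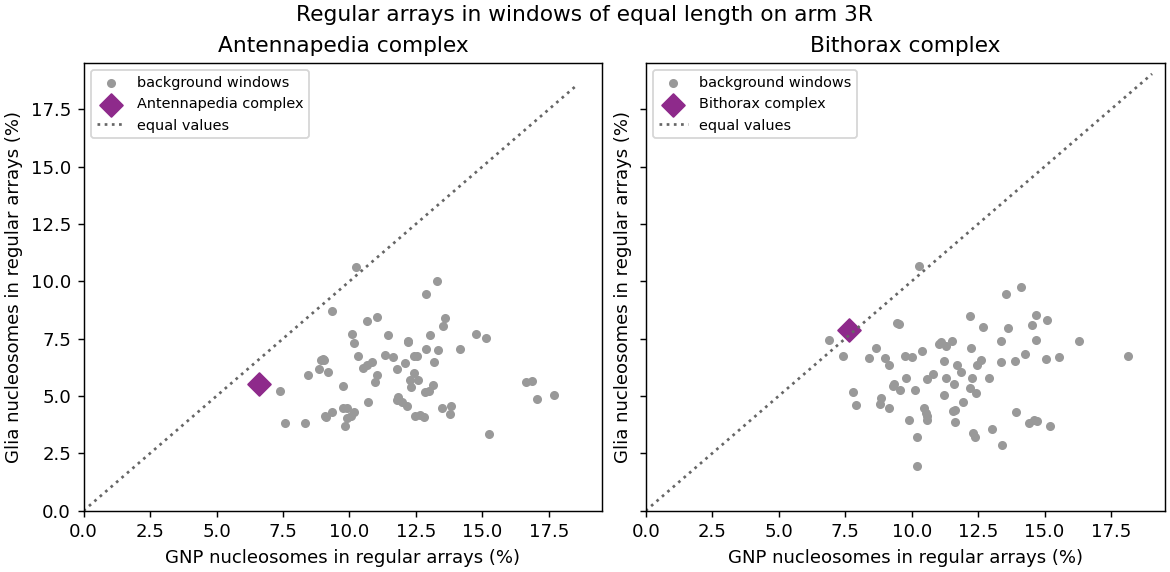
Percent of GNP nucleosomes (x axis) and of glia nucleosomes (y axis) in regular arrays for the Antennapedia complex (left, purple diamond) and the bithorax complex (right, purple diamond), each with background windows of the same length on arm 3R (grey points); the dotted line marks equal shares. The Antennapedia complex lies left of every grey point at 6.59% in GNP, and the bithorax complex lies near the dotted line at 7.65% in GNP and 7.88% in glia.

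The array share was also taken in 3 stretches of equal length of each complex. In the Antennapedia complex the stretch at the lab end had 7.84% of nucleosomes in arrays in GNP and 4.70% in glia. The middle stretch had 5.90% (4.19 to 8.26, 31 nucleosomes in 6 arrays) and 7.80% (5.78 to 10.4, 40 nucleosomes in 7 arrays). The stretch at the Antp end had 6.05% and 4.09%. The GNP intervals of the 3 stretches overlap, as do the GNP and glia intervals of the middle stretch. Of these 3, the middle stretch was the only one with more in glia, by 1.89 points, which lay above 217 of 226 windows of that length. The difference lay above 214 windows with runs of at least 4 nucleosomes and above 217 with distances from 150 to 220 bp. The low GNP share was not found in all 3 stretches with distances from 150 to 220 bp. There the lab end had 42.6% in GNP, above 165 of 226 windows. The middle had 31.0%, above 31 windows, and the Antp end had 23.6%, above 2.

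In the bithorax complex the stretch at the Ubx end had 5.83% in GNP and 6.77% in glia. The middle stretch had 10.6% and 4.02%. The stretch at the Abd-B end had the reverse, 6.36% in GNP (4.54 to 8.84, 32 of 503) and 12.7% in glia (10.1 to 15.9, 64 of 504). This difference of 6.34 points was above all 240 windows, which had a median of -5.28 points and a range of -22.7 to 6.19. Its glia share was above 239 windows. It depended on the length of the runs, however. With runs of at least 4 nucleosomes the same stretch had 21.5% in GNP and 21.4% in glia, a difference of -0.0426 points, above 219 windows. With distances from 150 to 220 bp it had 41.0% in GNP and 33.1% in glia, and the difference lay above that of 161 windows. The glia share alone was high throughout, above 237 and 204 windows. The signs in the other stretches also depended on the definition. With runs of at least 4 nucleosomes the middle stretch had 19.5% in GNP and 8.84% in glia. With distances from 150 to 220 bp it had more in glia, 28.5% in GNP and 32.1% in glia. That difference of 3.61 points lay above 228 windows. The Ubx end had less in glia under both, 17.9% and 14.6% with the shorter runs and 30.7% and 23.6% with the wider distances.

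The longest array in the Antennapedia complex had 10 GNP nucleosomes at 3R:2585173-2586998, with a mean distance of 187 bp. Of these, 1 had a glia nucleosome within 10 bp, and the median distance to the closest glia dyad was 61 bp. An array of this length or more occurred in 37 of 74 windows. The longest glia arrays had 8 nucleosomes each, at 3R:2577153-2578571 and 3R:2620462-2621881. In the former, 6 of 8 nucleosomes lay within 10 bp of a GNP nucleosome, and in the latter 3 of 8 did. So a regular array of 1 cell type could coincide with nucleosomes of the other or run out of register with them.

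In the bithorax complex the longest GNP arrays had 7 nucleosomes, at 3R:12509773-12510992 and 3R:12593513-12594756, with mean distances of 179 and 183 bp. Every one of 78 windows had a GNP array as long. The longest glia array had 8 nucleosomes at 3R:12727447-12728844 with a mean distance of 179 bp, and 44 windows had one as long. It lies in the stretch at the Abd-B end, which held 11 glia arrays against 6 GNP arrays. Another in that stretch, with 7 nucleosomes at 3R:12785056-12786326, had no GNP nucleosome within 10 bp of any member, and its median distance to the closest GNP dyad was 90 bp.

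The distances between all dyads of a map describe the repeat without a threshold on runs. The number of dyad pairs at each distance was divided by the number that even placement gives, and the height of each repeat was read as the ratio of its peak to the following trough. In GNP the Antennapedia complex had a first peak at 168 bp with a ratio of 4.26, lower than in 72 of 74 windows (median 5.11). The first peak of the complex lay at a shorter distance than in 72 windows (median 174 bp), although its median spacing was wide. Its second peak, at 364 bp, had a ratio of 1.71, lower than in 73 windows (median 2.19). In glia the first peak was at 183 bp, and 12 windows had it at a longer distance (median 177 bp). The first glia ratio was 3.60, higher than in 41 windows (median 3.53), and the second was 1.70, higher than in 59 (median 1.56). Relative to the windows of the same map, the repeat contrast was thus low in GNP and not low in glia, although the ratios of the complex itself were no lower in GNP than in glia.

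For the bithorax complex the GNP ratio at the first peak, 171 bp, was 4.20, lower than in 74 of 78 windows (median 5.10). This first peak was at a shorter distance than in 68 windows (median 174 bp). At the second peak, 392 bp, the ratio was 1.95, lower than in 67. In glia the first peak was at 183 bp and its ratio was 4.30, higher than in 74 windows (median 3.60). The second glia peak, at 405 bp, had a ratio of 1.50 and was lower than in 59 windows. The contrast of the first repeat was therefore about equal in both maps of this complex, whereas the window median was 5.10 in GNP and 3.60 in glia.

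**Figure D3:**
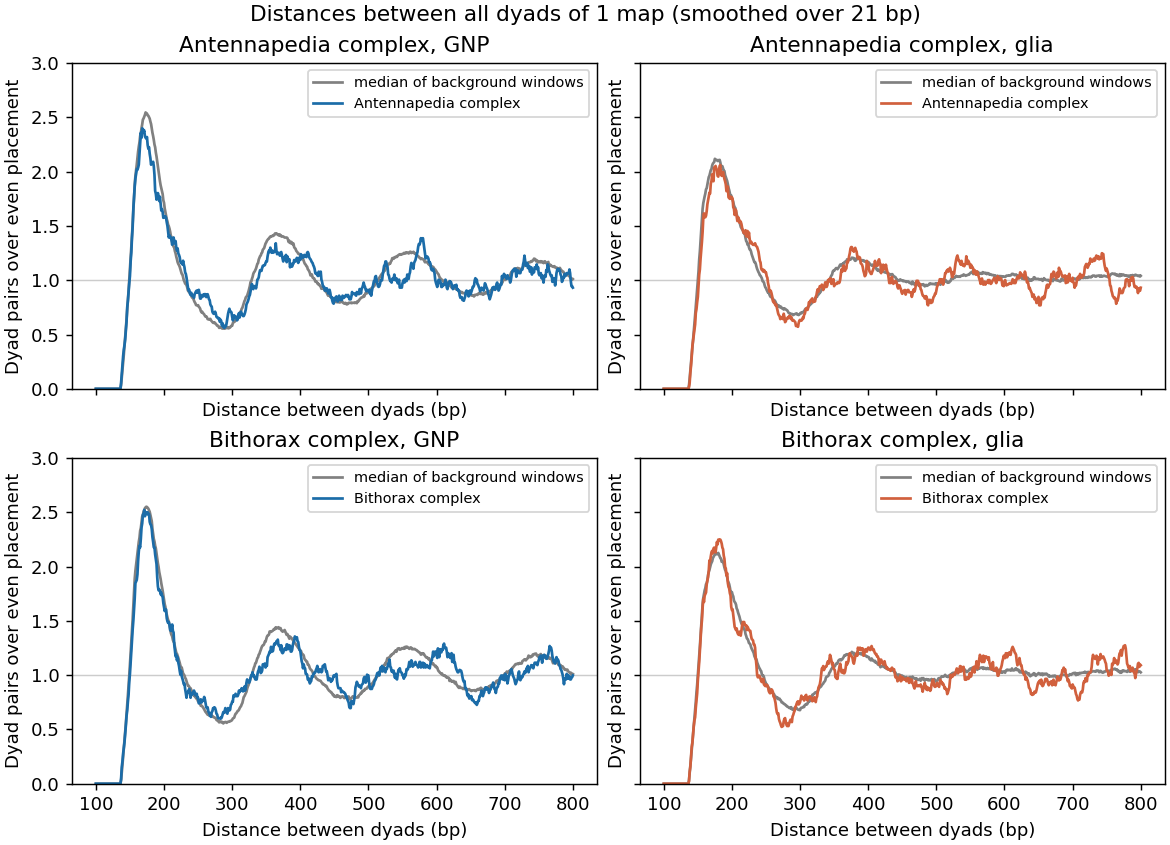
Number of dyad pairs over that of even placement (y axis) against the distance between dyads in bp (x axis), smoothed over 21 bp, for the Antennapedia complex (top) and the bithorax complex (bottom) in GNP (left, blue) and glia (right, orange), with the median of the background windows in grey. In GNP the second peak of the Antennapedia complex, at 364 bp, lies under the grey line, and in glia the first peak of the bithorax complex lies over it.

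Positions were then compared between the maps, with the closest nucleosome of the other map as the partner. In the Antennapedia complex 36 nucleosomes had exactly the same position, which was 2.28% of GNP nucleosomes (1.65 to 3.14) and 2.34% of glia nucleosomes, beside background shares of 1.67 and 1.71%. The GNP share was above that of 73 of 74 windows. With a tolerance of 10 bp the complex was ordinary, with 451 nucleosomes, or 28.6% of GNP (26.4 to 30.9) and 29.3% of glia, beside 28.7 and 29.4%. The closest glia nucleosome lay at a median distance of 42 bp from a GNP nucleosome (38 to 48), longer than in 66 windows.

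More partners than in most windows lay at an intermediate distance. From 70 to 100 bp lay the partners of 373 GNP nucleosomes, 23.7% (21.6 to 25.8) beside 20.9% in the background, and those of 355 glia nucleosomes, 23.1% (21.1 to 25.3) beside 20.4%. The GNP share was above 72 windows, and the glia share was above all 74. Both shares describe nearly the same pairs seen from either map. At this distance a nucleosome of 1 map sits over the linker of the other. The distance class was chosen after the values were seen.

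In the bithorax complex 24 nucleosomes had the same position, 1.64% of GNP nucleosomes (1.10 to 2.43) and equal to the window median. Within 10 bp lay 429, 29.3% of GNP (27.03 to 31.7) and 29.4% of glia. The median distance to the closest glia nucleosome was 39 bp. Partners at 70 to 100 bp made up 21.8% of GNP nucleosomes and 21.4% of glia nucleosomes, over 53 and 56 of 78 windows. Along this complex the share within 10 bp was 24.8% (21.1 to 29.0, 115 of 463) at the Ubx end, 34.5% (30.5 to 38.8, 172 of 498) in the middle and 28.2% (142 of 503) at the Abd-B end. The intervals of the middle and the Ubx end do not overlap, but this is not a test. The stretches were chosen after values were seen. No windows of their length were ranked for this share, so whether the difference is usual for the arm is unknown.

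**Figure D4:**
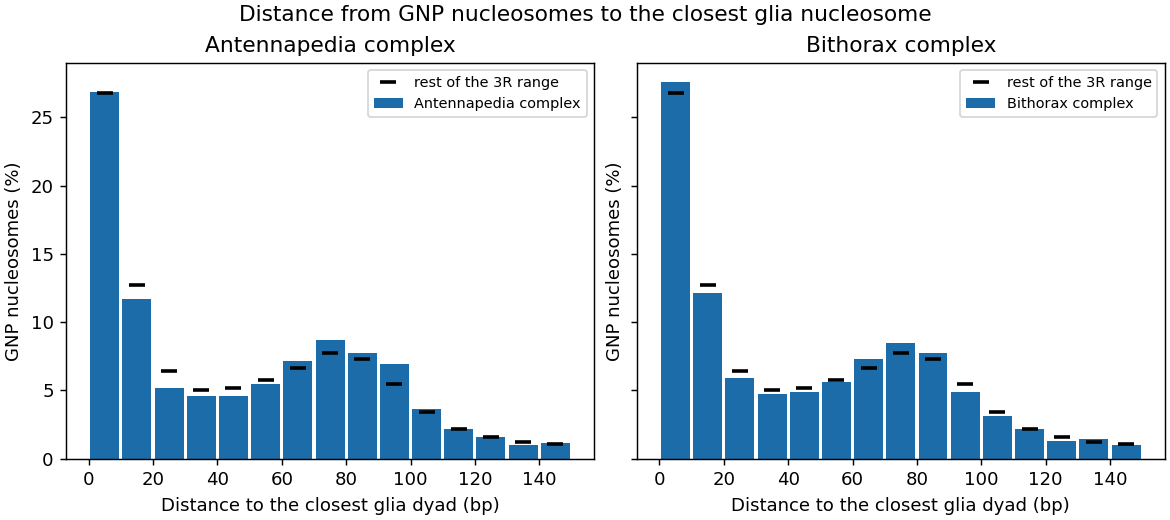
Percent of GNP nucleosomes (y axis) by distance to the closest glia dyad in 10 bp classes (x axis, bp) for the Antennapedia complex (left) and the bithorax complex (right) as bars, with the share over the rest of the 3R range as black dashes. A peak under 10 bp and a broad rise at 70 to 100 bp appear in both complexes, and in the Antennapedia complex the bars of that rise stand over the dashes.

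Runs of neighbouring GNP nucleosomes that each had a glia nucleosome within 10 bp were short. In the Antennapedia complex the longest had 6 nucleosomes, as at 3R:2494090-2495425, where the glia nucleosomes lay -1, 0, 4, -2, -1 and 7 bp from those of GNP. Its distances between neighbours, 258, 244, 204, 213 and 270 bp, were all over 200 bp, so this run kept its places without being a regular array. In the bithorax complex the longest had 7 nucleosomes at 3R:12682979-12684326, with glia nucleosomes 3, -6, -7, -1, 8, 0 and 3 bp away. A run as long occurred in 63 of 74 windows and in 28 of 78 windows, respectively. The bin with the highest share within 10 bp started at 2570000 in the Antennapedia complex (42.2% of GNP nucleosomes) and at 12600000 in the bithorax complex (51.2%). The lowest shares were 17.8% in the bin from 2650000 and 14.6% in the bin from 12530000.

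Following the study, nucleosomes that shared at most 20 bp with their closest partner were counted as lost if they belonged to GNP and as gained if they belonged to glia. In the Antennapedia complex 67 GNP nucleosomes were lost, or 4.25% (3.36 to 5.36), beside 4.33% in the background. There 59 glia nucleosomes were gained, or 3.84% (2.99 to 4.92), beside 3.8%. Both shares were in the middle of the windows, with 33 and 38 of 74 lower. More nucleosomes were gained than lost in 8 of 35 bins (22.9%), beside 32.2% of background bins. The remaining 93.5% of GNP nucleosomes had shifted.

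In the bithorax complex the lost share was near the window median, and the gained share was above all but 1 window. Lost nucleosomes numbered 64, or 4.37% (3.44 to 5.54), with 38 of 78 windows lower. Gained nucleosomes numbered 73, or 5.00% (3.995 to 6.24), with 77 windows lower, a median of 3.77% and a range of 2.65 to 5.88%. Gains exceeded losses by 0.628 points, above 75 windows, and in 18 of 33 bins (54.5%). They were spread over the complex, with 26, 26 and 21 gained nucleosomes from the Ubx end to the Abd-B end. Without the stretches over 500 bp that had no predicted GNP nucleosome, the gained share was 4.88% and again above 77 windows. Where no overlap at all was asked for, it was 2.26%, above 66 windows. The bin from 12530000, with 6 gained and 2 lost, holds one of those stretches.

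**Figure D5:**
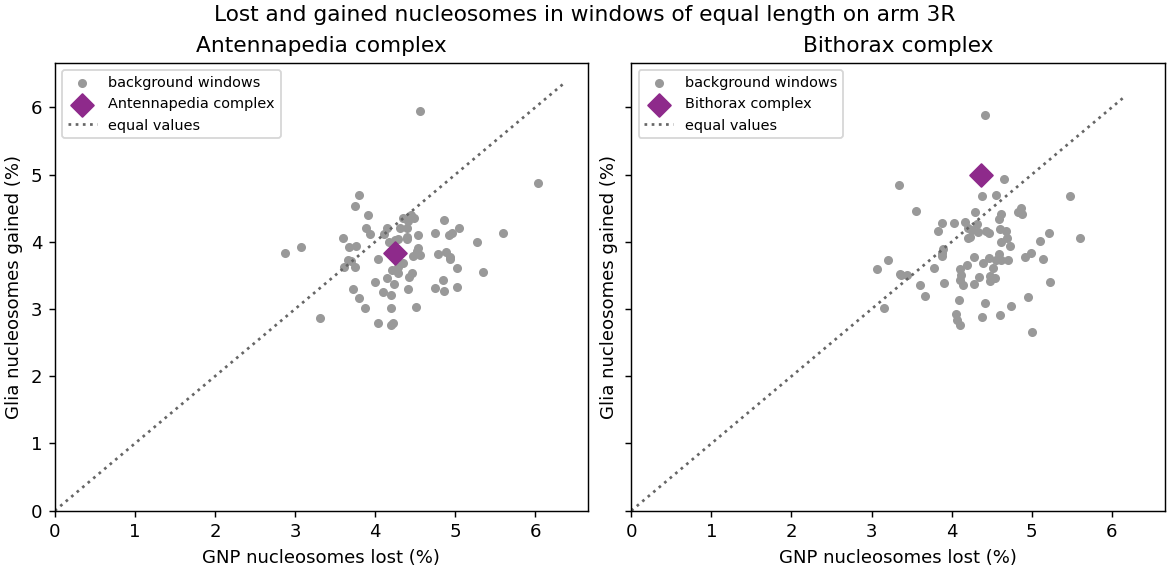
Percent of GNP nucleosomes lost (x axis) and of glia nucleosomes gained (y axis) for the Antennapedia complex (left, purple diamond) and the bithorax complex (right, purple diamond), each with background windows of the same length (grey points); the dotted line marks equal shares. The Antennapedia complex lies among the grey points at 4.25 and 3.84%, and the bithorax complex lies over the dotted line at 4.37 and 5.00%, with 1 grey point higher.

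Gaps, stretches of 150 bp or more free of nucleosomes between neighbours at most 500 bp apart, were long enough to hold a nucleosome. The Antennapedia complex had 175 gaps in GNP, 11.1 per 100 nucleosomes (9.64 to 12.7) beside a window median of 11.3. In glia it had 207, or 13.5 per 100 (11.9 to 15.3) beside 12.2, more than 68 of 74 windows. In GNP, 128 gaps held the dyad of a glia nucleosome (73.1%, background 68.6%), and in glia 142 held the dyad of a GNP nucleosome (68.6%, background 70.8%). Most gaps of either map were therefore occupied in the other. Gaps that overlapped a gap of the other map numbered 45, or 25.7% of GNP gaps and 21.7% of glia gaps. The background share of such overlaps was not computed, so whether this number is usual is unknown.

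The bithorax complex had many gaps already in GNP. It had 201, or 13.7 per 100 nucleosomes (12.1 to 15.6), more than 77 of 78 windows, whose median was 11.4. In glia it had 195, or 13.4 per 100 (11.7 to 15.2), more than 71 windows. A glia dyad lay in 130 GNP gaps (64.7%, 10 windows lower), and a GNP dyad lay in 141 glia gaps (72.3%, 49 windows lower). Gaps that overlapped a gap of the other map numbered 46, or 22.9% of GNP gaps and 23.6% of glia gaps, again without a background share. Gaps of 200 bp or more numbered 48 in GNP, or 3.28 per 100, with 51 windows lower. In glia they numbered 36, or 2.47 per 100, with 15 windows lower.

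Some gaps of a map overlapped a gap of the other, so that at least a part of them was free of predicted nucleosomes in both cell types. In the Antennapedia complex the widest GNP gap of this kind, 318 bp at 3R:2720061-2720379, contained a glia gap of 162 bp and also 1 glia dyad. The widest glia gap, 245 bp at 3R:2546509-2546754, overlapped a GNP gap of 217 bp by 175 bp, and no dyad of the other map lay in it. In the bithorax complex a GNP gap of 311 bp at 3R:12701736-12702047 overlapped a glia gap of 235 bp. Among the widest gaps of this kind, which alone were compared, the borders agreed best at 3R:12736834-12737123. This glia gap of 289 bp contained a GNP gap of 276 bp. At 3R:12646807-12647074 a glia gap of 267 bp overlapped one of 221 bp in GNP by 218 bp.

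Longer stretches without any predicted nucleosome lay between neighbours over 500 bp apart. The longest of each complex was nearly the same in both maps, but some stretches were found in GNP only. The Antennapedia complex had 5 in GNP (5461 bp) and 4 in glia (4735 bp). The longest, 3R:2563237-2564944, measured 1707 bp in GNP, against 1711 bp in the glia map. The bithorax complex had 3 in GNP (6858 bp) and 1 in glia (6083 bp). The latter, 3R:12582169-12588252, was 6087 bp in GNP and lies near the border between the Ubx end and the middle of the interval. Whether these stretches lack nucleosomes or lack uniquely mapped reads was not tested, since the lists hold no coverage. In the Antennapedia complex the GNP-only stretch at 3R:2530018-2530489 (471 bp) held 1 glia dyad. In the bithorax complex those at 3R:12483760-12484163 (403 bp) and 3R:12536332-12536700 (368 bp) each held 2 glia dyads.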

How the data were processed

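MNase-seq libraries of GNP and glia nuclei were compared, 1 per cell type. The authors aligned single-end reads to dm3 with up to 2 mismatches (Bowtie 0.12.7 per the submitters' processing notes), kept unique reads and predicted nucleosomes with GeneTrack, whose settings are not given in the sources used here. The deposited lists hold chromosome, start and end in bp, with no score or count. Whether they count from 0 or 1 was not settled (uncertainty 1 bp).

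Dyads, neighbour distances, arrays, gaps and overlaps were computed with Python 3.11.15, numpy 2.4.6 and scipy 1.17.1, and figures with matplotlib 3.10.9. Parts of the code were tested on simulated data, namely same-position and lost counts, neighbour distances, the class of 70 to 100 bp and the first peak. Array shares, gaps, gained shares and ranks were not tested in this way. Named regions were the bins with the highest and lowest share within 10 bp and the largest number changes, the longest arrays and kept runs, the widest shared gaps and the longest uncalled stretches. Members, measures and lists were chosen with earlier results of these data known, and the array share, the class of 70 to 100 bp, the 3 stretches and the flanks were chosen after values were seen. Planned values at genes and motifs were not computed, as no dm3 genome or annotation was used here.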

Additional observations from a re-analysis of the deposited data

How the results depend on the processing

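Of 114 alternatives, 82 shifted a value by less than its counting interval, among them all 30 that moved the tiling of the background and all 28 that moved the borders of a complex by 20 kb. The other 32 changed a definition and so its value. Widening the regular range to 150 to 220 bp gave shares of distances of 58.0% in GNP and 53.9% in glia for the Antennapedia complex, and 59.5% and 56.1% for the bithorax complex. It gave array shares of 32.7% and 27.9%, and 33.5% and 29.9%. Arrays of at least 4 nucleosomes held 15.2% and 12.0%, and 19.7% and 15.0%. The same position alone was kept by 2.28% and 2.34%, and by 1.64% in both maps of the bithorax complex. A tolerance of 20 bp gave 39.4% and 40.4%, and 40.4% and 40.5%. Without any overlap, lost and gained shares were 1.90% and 1.37%, and 1.98% and 2.26%, and with an overlap of 73 bp or less they were 31.8% and 30.1%, and 29.6% and 29.5%. Gaps of 200 bp or more numbered 2.85 and 3.45, and 3.28 and 2.47, per 100 nucleosomes. The alternatives for arrays, and windows placed every 10 kb, were chosen after seeing the data. With windows every 10 kb, 0.117% of 2559 had a lower GNP array share than the Antennapedia complex, and 1.95% of 2565 a lower one than the bithorax complex.

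No paired analysis was possible because each cell type has 1 library. For the same reason no value has a replicate error. Depth is unknown, and its part in which positions were listed was not tested. Neighbouring nucleosomes are not independent, so the intervals can be too narrow or too wide. For the difference in nucleosome number of the bithorax complex, the interval was wider than the range of all windows.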

Other observations

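The 100 kb on either side of each complex was set beside it in array share. Below the Antennapedia complex 17.3% of GNP nucleosomes and 10.6% of glia nucleosomes lay in regular arrays, and above it 13.0% and 10.3%. Both flanks thus had larger shares than the complex itself in both maps, where it had 6.59% and 5.53%. Below the bithorax complex 9.94% of GNP (7.53 to 13.0) and 5.12% of glia nucleosomes (3.44 to 7.57) did so. Above it the shares were 8.58% (6.29 to 11.6) and 3.51% (2.14 to 5.71). Both flanks of this complex had less in glia than in GNP, while the complex had 7.65% (6.40 to 9.13) and 7.88% (6.60 to 9.37). The GNP intervals of the complex and both flanks overlap, as do the glia intervals of the complex and the lower flank. The gained share of 5.00% in the bithorax complex also exceeded that of its flanks, 2.45% (11 of 449) below and 4.22% (18 of 427) above. The interval of the lower flank, 1.37 to 4.33, overlaps that of the complex, 3.995 to 6.24. The interval of the upper flank, 2.68 to 6.56, holds the share of the complex.

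The median distance between neighbouring dyads below the Antennapedia complex was 196.5 bp (GNP) and 203 bp (glia), and above it 200 bp and 211 bp, shorter on both sides than the 204 bp and 213 bp of the complex. Around the bithorax complex it was 201 bp and 208 bp below, and 205 bp and 209 bp above. No test of these differences was possible.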
